A study of Homo sapiens with 18 samples.

Results

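The genes that make, store, take up and break down catecholamines were followed through the neuronal differentiation of SH-SY5Y cells, a human neuroblastoma line of sympathetic origin obtained from ATCC. The set was chosen by symbol from the deposited table and holds 8 of its 26372 genes: the enzymes TH, DDC and DBH, the cofactor enzyme GCH1, the vesicular transporters SLC18A1 and SLC18A2, the plasma membrane transporter SLC6A2 and the breakdown enzyme MAOA. RNA-seq of rRNA-depleted total RNA gave 18 libraries in 6 groups of 3. Every culture had been infected with a lentivirus built on the FUGW plasmid and kept its own ZNHIT3 gene. The virus carried wild-type ZNHIT3 (WT), ZNHIT3-C14R or ZNHIT3-∆251-254, called the deletion here, whose replicates 2 and 3 bear the labels 251-255 and 251-256. ZNHIT3 is a zinc-finger protein that takes part in building small nucleolar ribonucleoproteins. Each construct was sampled at day 0 and at day 18. Cells were kept in medium with serum, and from 48 hours after infection the differentiating cultures received serum-free neurobasal/B27 medium with the neurotrophin BDNF (50 ng/ml), all-trans retinoic acid (10 μM), dibutyryl cyclic AMP (2 mM) and KCl (20 mM) up to day 18. Day therefore cannot be told apart from the change of medium. The labels do not say whether replicates were separate cultures, so the p-values measure only the spread between these libraries, which may be technical.

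Catecholamines are made from tyrosine. Tyrosine hydroxylase (TH), which needs the cofactor tetrahydrobiopterin, makes L-DOPA, aromatic L-amino acid decarboxylase (DDC) turns it into dopamine, and dopamine beta-hydroxylase (DBH) turns dopamine into noradrenaline inside vesicles. GTP cyclohydrolase (GCH1) opens the synthesis of tetrahydrobiopterin, the vesicular monoamine transporters VMAT1 (SLC18A1) and VMAT2 (SLC18A2) load the vesicles, the noradrenaline transporter NET (SLC6A2) takes released transmitter back into the cell, and monoamine oxidase A (MAOA) degrades it. Neuroblastoma derives from the sympathoadrenal lineage, and DBH and the noradrenaline transporter are among its hallmark genes.

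Between day 0 and day 18 the genes for noradrenaline synthesis and vesicle loading rose in all 3 constructs while the reuptake transporter SLC6A2 fell. DBH, SLC18A2 and SLC18A1 rose most on the log2(FPKM + 1) scale, DDC, GCH1 and MAOA rose less, and TH went from at or near 0 to between 0.289 and 1.02 FPKM. FPKM divide a gene's fragments by its transcript length and by the library's mapped fragments, a scale that corrects for gene length and so allows levels of different genes to be compared. In limma's moderated test across all 13785 genes with a mean of at least 1 FPKM, 7 of 7 tested members passed an adjusted p of 0.05 in WT, in C14R and in the deletion, 6 of them higher and 1 lower at day 18. The background was high: 72.2% of all tested genes passed in WT, 72.9% in C14R and 73.0% in the deletion. Higher genes were 38.2%, 37.9% and 38.6% of those tested and lower genes 34.0%, 35.0% and 34.4%, and 33.3% were higher and 29.7% lower in all 3 constructs, so a pass says little of these members and the sizes of the changes are what follows. Of all tested genes, 14.1% changed by at least 1 on the log2 scale in WT, as did 4 of the 7 tested members. The median log2 change over the 7 was 0.96 in WT, 1.13 in C14R and 1.20 in the deletion, against 0.03, 0.02 and 0.03 over all tested genes. Each of the 7 had a mean above 1 FPKM at both days, so none entered the test through its high day alone. TH stayed under that filter. All log2 changes are differences of log2(FPKM + 1). In bulk RNA, fewer cells of a type and less RNA per cell cannot be told apart.

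**Figure D1:**
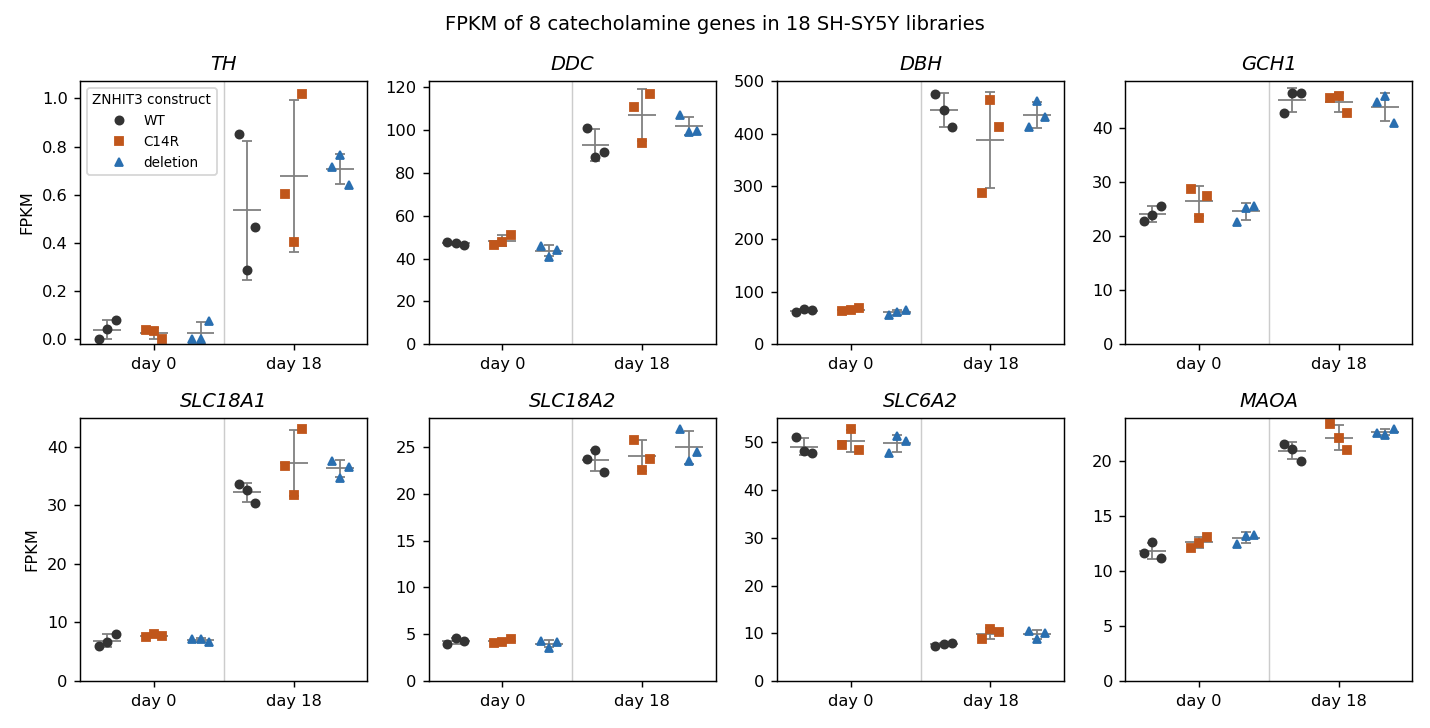
FPKM (vertical axes, 1 scale per gene) of the 8 genes in every library, grouped by day and by ZNHIT3 construct, with grey lines at the mean and bars of 1 SD over 3 libraries. In each gene the day 0 and day 18 libraries of every construct do not overlap, SLC6A2 is the gene that is lower at day 18, and C14R replicate 1 has the lowest DBH level of day 18, at 288.

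One library stood apart. C14R replicate 1 of day 18 had 24.8 on the second principal component of log2(FPKM + 1), where the other 17 libraries lay between -8.3 and 9.3. For single tested genes, the log2 changes named for C14R at day 18 are also given without it. TH, under the filter, is given with all libraries only. Day 0 and day 18 lay apart on the first component, with 86.9% of the variance against 2.5% on the second. FPKM carry no counts, so absolute depth is unknown. From the steps of low values, relative depth was 58.6% to 85.3% of the deepest library at day 0 and 81.8% to 100% at day 18. ZNHIT3, the delivered gene, was measured at 530.6 to 542.0 FPKM in WT, 418.9 to 432.0 in C14R and 292.0 to 310.1 in the deletion at day 0, and at 1102.7 to 1193.1, 599.7 to 755.8 and 294.3 to 312.8 at day 18, so its level differed between constructs as well as its sequence. All 8 noradrenergic neuroblastoma markers, among them PHOX2A, HAND2, GATA3, CHGA, CHGB and STMN2, had a mean of at least 1 FPKM at day 0, and 7 did at day 18. Their summed level was 1239 to 1354 at day 0 and 2389 to 2654 at day 18. Without CHGB, a granule protein that rose from 90.8 ± 9.55 to 963 ± 19.4 FPKM in WT (SD, n = 3), the sum was 1161 to 1249 and 1428 to 1610. In WT, 4 of these 8 rose, 3 fell and 1 did not pass the test. Of 7 markers of the mesenchymal type of neuroblastoma cell (PRRX1, VIM, FN1, YAP1, CD44, SNAI2 and NOTCH2), the 6 tested all fell in each construct, and the summed level went from 686 to 850 down to 77.8 to 84.7, with PRRX1 at 0 in the 3 WT libraries of day 18. The summed level of 5 Schwann or glial markers was 3.12 to 4.78 at day 0 and 7.26 to 9.16 at day 18, with no group mean of the defining marker SOX10 above 0.383, and that of 5 fibroblast markers was 81.7 to 86.1 and 70.1 to 78.8. Of these 5, 4 were tested, and in each construct COL1A1, DCN and LUM fell (-2.03, -1.93 and -1.16 in WT) and PDGFRA rose (0.98 in WT), so that the sum without PDGFRA went from 49.4 to 58.1 down to 10.6 to 16.1. The part of these markers in the changes described here was not tested.

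On the log2(FPKM + 1) scale DBH and SLC18A2 had the largest rises of the 8 genes in WT, and the bases before their start sites are shown because the day 18 medium held a cyclic AMP analogue. The cyclic AMP response element reads TGACGTCA. Its shorter form reads TGACG, or, when it lies on the opposite strand, CGTCA. Windows of 4 of the 8 genes were taken from the RefSeq promoter table (GRCh38.p14) and searched, 5 windows in all. Whether that table holds windows of the other genes is not stated here. The 250 bases before the RefSeq start are printed 5′ to 3′ on the gene's strand, with matches to TGACG or TGACGTCA in capitals, for DBH at chr9:133636113-133636362 on the plus strand and for SLC18A2 at chr10:117240864-117241113 on the plus strand. The RefSeq starts of DBH and SLC18A2 lie inside the longer gene models of GENCODE, as do those of the DDC and MAOA windows. The GENCODE model of SLC18A2 begins at 117241073, within the printed window.
DBH: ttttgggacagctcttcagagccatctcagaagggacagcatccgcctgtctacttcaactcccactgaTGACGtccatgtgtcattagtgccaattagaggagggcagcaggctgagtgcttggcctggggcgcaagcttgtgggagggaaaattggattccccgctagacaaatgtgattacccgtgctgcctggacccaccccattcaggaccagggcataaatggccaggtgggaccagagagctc
SLC18A2: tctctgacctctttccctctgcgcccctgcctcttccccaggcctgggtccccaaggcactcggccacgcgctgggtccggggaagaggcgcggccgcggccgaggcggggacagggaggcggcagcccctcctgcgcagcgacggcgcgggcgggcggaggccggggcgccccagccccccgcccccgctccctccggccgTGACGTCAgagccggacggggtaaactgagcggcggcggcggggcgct
The SLC18A2 window held the full TGACGTCA, beginning 48 bases before the RefSeq start, and 1.6% of all 35116 windows of that length held one. The full element contains both forms of the shorter motif, so its 2 matches in this window overlap and are the same bases. The DBH window held TGACG beginning 181 bases before the RefSeq start, and 21.2% of all windows held the short motif in either form. The windows of MAOA and both windows of DDC held neither form of the short motif. ATTA is the core recognised on either strand by homeodomain factors such as PHOX2A. It was found 3 times in the DBH window, 1 and 4 times in the DDC windows and 1 time in the MAOA window. The SLC18A2 window held none. Of all windows, 47.4% held ATTA at least 1 time, and the share holding it more often was not computed. A match is a description of letters and not evidence of binding. TH, GCH1, SLC6A2 and SLC18A1 are named only.

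TH, on chromosome 11 at 2163929 to 2171877 (minus strand; all gene positions are from GENCODE release 29 on GRCh38), encodes the rate-limiting enzyme of the pathway and was the lowest of the 8 genes in every group. At day 0 its FPKM in replicates 1, 2 and 3 were 0, 0.0414 and 0.0804 in WT, 0.041, 0.0364 and 0 in C14R, and 0, 0 and 0.0781 in the deletion. At day 18 they were 0.851, 0.289 and 0.466 in WT, 0.602, 0.406 and 1.02 in C14R, and 0.717, 0.766 and 0.642 in the deletion. Every day 18 library lay above every day 0 library, and 4 of 9 day 0 libraries were listed at 0. After correction for relative depth, the 5 day 0 values of TH above 0 were 1.0 to 2.02 times the smallest such value of TH in the 18 libraries. The day 18 values were 8.11 to 32.3 times that smallest value. If it stands for 1 fragment, which is assumed here, the day 0 values above 0 rest on about 1 or 2 fragments. No fold is given against such a base. Fitted without the filter, the log2 change of TH was 0.55 in WT, 0.69 in C14R and 0.74 in the deletion, with limma adjusted p of 0.0013, 0.00016 and 9.1e-05. At day 18 the DBH level was 402 to 1540 times the TH level within a library. The enzyme that opens the pathway was thus measured at 1.02 FPKM or less where the last enzyme was measured at 288 FPKM or more.

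DDC, the decarboxylase, lies on chromosome 7 at 50458436 to 50565457 (minus strand). Its FPKM at day 0 were 47.7, 47.3 and 46.4 in WT, 46.2, 47.8 and 51.2 in C14R, and 46.1, 40.8 and 44.1 in the deletion. At day 18 they were 101, 87.3 and 90 in WT, 111, 94 and 117 in C14R, and 107, 99 and 99.6 in the deletion. The days did not overlap in any construct. DDC rose by 0.96 in WT (95% interval 0.81 to 1.11, limma adjusted p 1.8e-09), 1.13 in C14R and 1.20 in the deletion on the log2 scale, and the ratio of group means was 1.97, 2.22 and 2.33. A rise at least as large as that of DDC in WT was seen in 7.83% of tested genes. The gene overlaps FIGNL1 over 84100 bases on the same strand and DDC-AS1 over 11705 bases on the other. FIGNL1 was lower than DDC in every library, at 9.85 to 16.2 FPKM, and fell at day 18 (-0.52 in WT), and DDC-AS1 lay between 0.596 and 1.96 FPKM. How reads of overlapping genes were divided, and whether strand was used, is not given in the sources used here, so these levels are uncertain to that extent.

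DBH, which makes noradrenaline from dopamine, lies on chromosome 9 at 133635348 to 133659344 (plus strand) and had the highest level of the 8 genes in every group. At day 0 it was measured at 60.3, 66.4 and 65.5 FPKM in WT, 63.1, 64.2 and 69.2 in C14R, and 56.2, 60.6 and 64.2 in the deletion. At day 18 the levels were 476, 446 and 412 in WT, 288, 465 and 412 in C14R, and 413, 463 and 432 in the deletion. All 9 day 18 libraries were above all 9 day 0 libraries, and the library that stood apart, C14R replicate 1, was the lowest of day 18. DBH rose by 2.78 in WT (95% interval 2.53 to 3.02, limma adjusted p 8.9e-13), 2.52 in C14R and 2.83 in the deletion on the log2 scale, from a mean of 64 ± 3.26 to 445 ± 31.6 FPKM in WT (SD, n = 3). Without C14R replicate 1 of day 18 the C14R change was 2.72 (2.57 to 2.88). In WT, 66 of 13785 tested genes (0.479%) had a log2 rise at least as large, DBH included. In the same C14R library PHOX2A, a homeodomain factor of noradrenergic neurons, was also below the other day 18 libraries, at 109 FPKM against 137 to 164. So were the transporter genes SLC29A4, SLC18A3 and SLC3A2, at 15.9, 9.7 and 16.5 FPKM, while GATA3 was above them, at 94. The low level was thus not particular to DBH and PHOX2A, and a link between these was not tested. DBH overlaps DBH-AS1 on the other strand over 2728 bases. DBH-AS1 was measured at 2.01 to 6.28 FPKM over all libraries and also rose, by 0.83 in WT, and without known strand use the reads of both cannot be told apart where they overlap.

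GCH1, on chromosome 14 at 54842008 to 54902852 (minus strand), feeds the cofactor to TH. Its day 0 levels were 22.8, 23.9 and 25.7 FPKM in WT, 28.7, 23.4 and 27.5 in C14R, and 22.7, 25.3 and 25.6 in the deletion. Its day 18 levels were 42.8, 46.6 and 46.6 in WT, 45.7, 46 and 42.8 in C14R, and 44.8, 46 and 41 in the deletion. The days did not overlap, and the constructs overlapped at both. GCH1 rose by 0.88 in WT (95% interval 0.73 to 1.03, limma adjusted p 5.0e-09), 0.74 in C14R and 0.81 in the deletion on the log2 scale, and a rise of that size or more was seen in 9.21% of tested genes in WT.

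Both vesicular transporters rose, SLC18A2 from the lower level. SLC18A1, the form known from chromaffin cells, lies on chromosome 8 at 20144855 to 20183206 (minus strand) and had day 0 levels of 5.98, 6.67 and 8.04 FPKM in WT, 7.49, 7.96 and 7.6 in C14R, and 7.09, 7.21 and 6.61 in the deletion. Its day 18 levels were 33.6, 32.6 and 30.4 in WT, 36.8, 31.8 and 43.1 in C14R, and 37.5, 34.7 and 36.5 in the deletion. The lowest day 18 library, at 30.4 FPKM, was far above the highest of day 0, at 8.04, and C14R replicate 3 was the highest. SLC18A1 rose by 2.08 in WT (95% interval 1.88 to 2.28, limma adjusted p 1.8e-12), 2.13 in C14R and 2.22 in the deletion on the log2 scale.

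SLC18A2, the form known from neurons, lies on chromosome 10 at 117241073 to 117279430 (plus strand). Its day 0 levels were 3.93, 4.58 and 4.31 FPKM in WT, 4.06, 4.21 and 4.48 in C14R, and 4.23, 3.54 and 4.14 in the deletion. Its day 18 levels were 23.8, 24.7 and 22.4 in WT, 25.8, 22.6 and 23.8 in C14R, and 27, 23.5 and 24.5 in the deletion. The constructs overlapped at both days and the days did not. SLC18A2 rose by 2.22 in WT (95% interval 2.07 to 2.38, limma adjusted p 2.4e-14), 2.25 in C14R and 2.39 in the deletion on the log2 scale, a ratio of means of 5.53, 5.66 and 6.3. A rise as large was seen in 1.10% of tested genes in WT for SLC18A2 and in 1.25% for SLC18A1. The ratio of SLC18A1 to SLC18A2 within a library was 1.45 to 2.04 at day 0 and 1.32 to 1.81 at day 18, so SLC18A1 stayed the higher of the 2 in every library. SLC18A2 overlaps PDZD8 on the other strand over 2157 bases, and PDZD8 was measured at 15.5 to 23.5 FPKM and rose by 0.28 in WT.

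SLC6A2, on chromosome 16 at 55655604 to 55706192 (plus strand), went the other way. The noradrenaline transporter it encodes had day 0 levels of 51.2, 48.3 and 47.8 FPKM in WT, 49.5, 52.9 and 48.4 in C14R, and 47.7, 51.3 and 50.3 in the deletion. At day 18 the levels were 7.36, 7.77 and 7.93 in WT, 8.73, 10.8 and 10.3 in C14R, and 10.5, 8.77 and 10 in the deletion. No day 18 library came near the day 0 libraries, and the WT libraries were the lowest of day 18. SLC6A2 changed by -2.53 in WT (95% interval -2.68 to -2.38, limma adjusted p 2.5e-15), -2.23 in C14R and -2.24 in the deletion on the log2 scale, which left 15.6%, 19.8% and 19.6% of the day 0 mean. A fall as large was seen in 83 tested genes (0.602%) in WT, SLC6A2 included. Within a library DBH was 1.18 to 1.43 times SLC6A2 at day 0 and 32.9 to 64.6 times at day 18. The levels of the gene that makes noradrenaline and the gene that recovers it thus parted from near parity.

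MAOA, on the X chromosome at 43654907 to 43746824 (plus strand), encodes a mitochondrial enzyme that deaminates noradrenaline and other monoamines. Its day 0 levels were 11.6, 12.6 and 11.2 FPKM in WT, 12.1, 12.5 and 13.1 in C14R, and 12.4, 13.2 and 13.3 in the deletion. Its day 18 levels were 21.5, 21.1 and 20 in WT, 23.3, 22.1 and 21 in C14R, and 22.5, 22.3 and 22.9 in the deletion. The days did not overlap. MAOA rose by 0.77 in WT (95% interval 0.66 to 0.88, limma adjusted p 4.4e-10), 0.77 in C14R and 0.75 in the deletion on the log2 scale, the smallest rise of the 7 tested members in WT and in the deletion, and 11.7% of tested genes rose as much in WT.

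**Figure D2:**
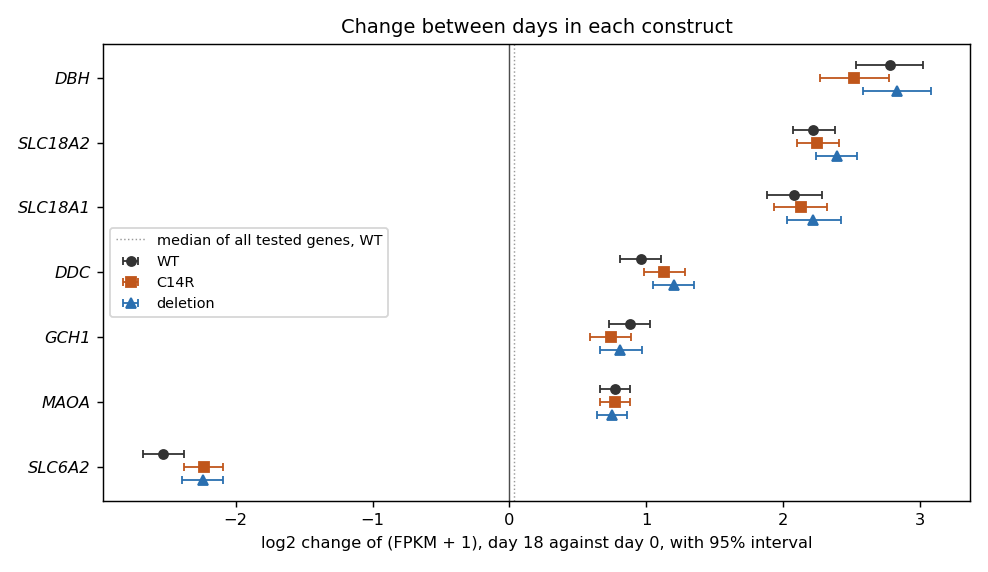
Log2 change of FPKM + 1 from day 0 to day 18 (horizontal axis) of the 7 tested members in each construct, with 95% intervals from limma. DBH lies furthest to the right, at 2.52 to 2.83, SLC6A2 lies at -2.53 to -2.23, and the dotted line marks the median of all tested genes in WT, 0.03.

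Days were also compared within constructs by an exact two-sided permutation test over all 18 libraries, which relabels days inside each construct in 8000 ways. The p was 0.00025 for each of the 8 genes, the smallest this test can give, and 0.00025 after adjustment over the 8 tests. All 9 day 18 libraries were above all 9 day 0 libraries in 7 genes and below them in SLC6A2. The share of all tested genes with such a separation, or with this p, was not computed, so neither is read as particular to these genes. Within a construct, with 3 libraries against 3, the smallest exact p is 0.1. The groups did not overlap for any of the 8 genes in any construct, as for 75.7% of tested genes in WT, 71.8% in C14R and 77.7% in the deletion. Without C14R replicate 1 of day 18, the C14R log2 changes were 1.10 for DDC, 0.72 for GCH1, -2.15 for SLC6A2, 2.13 for SLC18A1, 2.2 for SLC18A2 and 0.73 for MAOA. The scale matters for the size of the changes and not for their sign. When small RNA genes, which take a variable part of these rRNA-depleted libraries, were left out and the libraries rescaled, the median log2 change of all genes moved to 0.21 in WT, 0.18 in C14R and 0.22 in the deletion, and higher genes made up a larger share of the genes passing, going from 52.9% to 68.5%, from 52% to 66.3% and from 52.8% to 69.3%. On that scale SLC6A2 changed by -2.33 in WT and DBH by 2.98, which set against the shifted median is nearly as before.

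The order of the 8 levels changed with day. In WT at day 0 it was DBH, SLC6A2, DDC, GCH1, MAOA, SLC18A1, SLC18A2 and TH, and at day 18 DBH, DDC, GCH1, SLC18A1, SLC18A2, MAOA, SLC6A2 and TH. SLC6A2 thus moved from the second place to the seventh, and both vesicular transporters passed MAOA. The means had the same order in C14R and in the deletion at each day. Neighbours in the order did not overlap between libraries in WT or in the deletion, though SLC6A2 and DDC at day 0 were close, at 49.1 ± 1.82 and 47.1 ± 0.653 FPKM in WT (SD, n = 3). In C14R, SLC6A2 and DDC at day 0, GCH1 and SLC18A1 at day 18, and SLC18A2 and MAOA at day 18 overlapped.

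**Figure D3:**
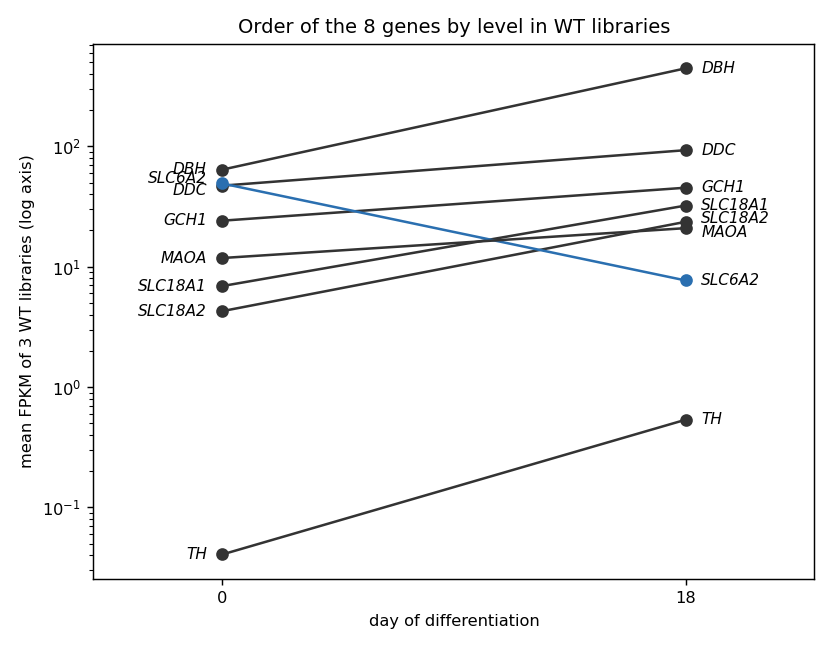
Mean FPKM over 3 WT libraries (vertical log axis) of the 8 genes at day 0 and day 18, with a line for each gene and the falling SLC6A2 in blue. SLC6A2 goes from 49.1 to 7.68 and crosses the lines of DDC, GCH1, MAOA, SLC18A1 and SLC18A2, while TH stays below all others.

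Differences between ZNHIT3 constructs within a day were small beside those between days. None of the 7 tested members passed the limma test in any of the 6 comparisons between constructs or in the 2 interactions with day. Passing was rare among all genes too: 0% for C14R against WT at day 0 and 0.0363% at day 18, 0.0290% for the deletion against WT at day 0 and 0.0725% at day 18, 0.0580% for C14R against the deletion at day 0 and 0.0290% at day 18, and 0% and 0.0145% for the C14R and deletion interactions. At an unadjusted p under 0.05 the members numbered 0 for C14R against WT at day 0 (2.81% of tested genes), 2 at day 18 (11.1%), 1 for the deletion at day 0 (6.22%), 1 at day 18 (11.4%), 0 for C14R against the deletion at either day (9.84% and 11.2%), and 1 and 2 in the interactions (5.73% and 7.36%). Against WT at day 0 the members' log2 differences lay between -0.01 and 0.15 for C14R and between -0.11 and 0.13 for the deletion, and their 95% intervals reached from -0.22 to 0.34 and from -0.33 to 0.24. At day 18 the differences lay between -0.22 and 0.33 for C14R and between -0.04 and 0.31 for the deletion, with intervals from -0.47 to 0.47 and from -0.28 to 0.46. An adjusted p above 0.05 does not show that the levels were equal, and the intervals give the sizes these data allow.

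SLC6A2 was the member that differed most between constructs. Its 3 WT libraries of day 18, at 7.36 to 7.93 FPKM, all lay below the 3 C14R libraries, at 8.73 to 10.8, and the 3 deletion libraries, at 8.77 to 10.5. At day 0 the 3 constructs overlapped. The log2 difference from WT at day 18 was 0.33 for C14R (95% interval 0.18 to 0.47, limma adjusted p 0.1) and 0.31 for the deletion (0.16 to 0.46, adjusted p 0.12), and both use the same WT libraries. The C14R difference passed with limma's library weights (0.37, adjusted p 0.0098) and without C14R replicate 1 of day 18 (0.41, adjusted p 0.021), and over 28 alternatives its adjusted p ran from 0.0098 to 0.93. The deletion difference passed in the same settings (0.30, adjusted p 0.026, and 0.31, adjusted p 0.032), with a range of 0.026 to 0.45. The interaction with day was 0.30 for C14R (limma adjusted p 0.71, or 0.38 with adjusted p 0.34 without C14R replicate 1 of day 18) and 0.29 for the deletion (adjusted p 0.49). The ZNHIT3 level was also highest in the WT libraries of day 18, and its part in this difference was not tested.

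DDC in C14R was above WT at day 18 by 0.20 on the log2 scale (95% interval 0.05 to 0.36, limma adjusted p 0.29), with means of 107 ± 12 and 92.9 ± 7.38 FPKM (SD, n = 3) and libraries that overlapped. It passed with library weights (0.30, adjusted p 0.036) and without C14R replicate 2 of day 18 (0.30, adjusted p 0.042), and was 0.18 (adjusted p 0.38) without C14R replicate 1. Its adjusted p ran from 0.036 to 0.95 over 28 alternatives. DBH in C14R was at 388 ± 91.1 FPKM against 445 ± 31.6 in WT at day 18 (SD, n = 3), a log2 difference of -0.22 that became -0.02 without C14R replicate 1. Groups that did not overlap were SLC6A2 for C14R at day 18 (higher in 5.44% of tested genes), SLC6A2, SLC18A1 and MAOA for the deletion at day 18 (higher in 10.4%), DDC for the deletion at day 0 (lower in 9.28%), and DDC and SLC18A1 for C14R against the deletion at day 0 (higher in 10.5%). TH, outside the filter, had values that overlapped between constructs at each day.

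**Figure D4:**
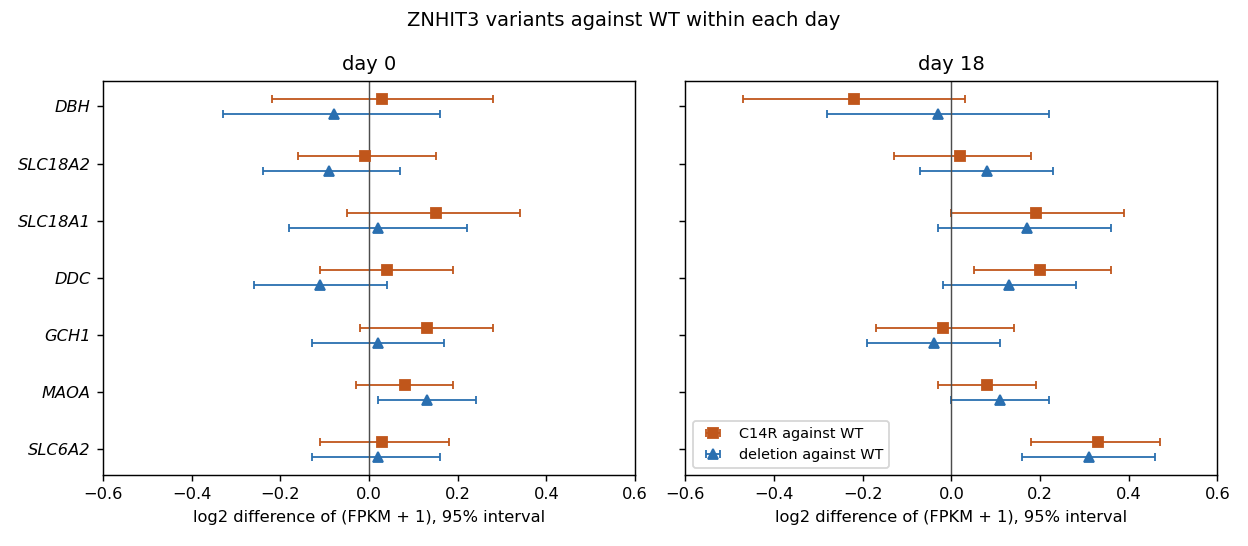
Log2 difference of FPKM + 1 from WT (horizontal axes) of the 7 tested members in C14R and in the deletion at day 0 and day 18, with 95% intervals from limma that carry no adjustment for multiple tests. The intervals of SLC6A2 at day 18, around 0.33 and 0.31, lie to the right of 0, and at day 0 its differences are 0.03 and 0.02.

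Of 71 other genes in 7 lists on catecholamine metabolism and transmitter identity, 34 could be tested, and 25 of these 34 passed between days in WT, against 72.2% of all tested genes, a share near the background. None passed in a comparison between constructs. Among other enzymes of synthesis and breakdown, 6 of 9 were tested in WT, with 2 higher, 2 lower and 2 not passing, and a list median of 0.11. MAOB, the second monoamine oxidase, rose from 15.8 ± 0.442 to 24.9 ± 0.507 FPKM in WT (SD, n = 3; log2 change 0.63), and ALDH2, an aldehyde dehydrogenase that acts on the products of monoamine oxidase, rose by 0.64. AKR1B1, an aldose reductase, fell by 0.67, from 82.8 ± 4.02 to 51.8 ± 4.88 FPKM. PNMT, which makes adrenaline from noradrenaline, was at 1.26 ± 0.488 and 1.32 ± 0.19 FPKM and did not pass, TYR had no group mean above 0.0546, and SULT1A3, which has a near-identical copy, was listed at 0 throughout. So both monoamine oxidases were higher at day 18.

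The tetrahydrobiopterin genes split. All 7 were tested, and in WT 2 rose, 3 fell and 2 did not pass, with a median of 0.01. SPR, which completes tetrahydrobiopterin synthesis, fell by 0.62 in WT, from 7.71 ± 0.905 to 4.66 ± 0.347 FPKM (SD, n = 3). QDPR, which recycles the cofactor, rose by 0.71 and PCBD1, a dehydratase of the same cycle, by 0.61. The rise of GCH1 was therefore not shared by every gene of its pathway.

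Of 11 genes for other monoamine uptake and vesicle support, 6 were tested in WT, and 4 rose, 1 fell and 1 did not pass, with a median of 0.58. SLC31A1, which imports the copper that DBH needs, rose by 0.80, ATP7A, which pumps copper into the secretory pathway, rose by 0.52, and SLC29A4, a low-affinity monoamine transporter, rose by 0.65. SLC3A2, the heavy chain of amino acid transporters that carry L-DOPA and tyrosine, rose by 0.63 in WT and by 0.29 in the deletion and did not pass in C14R (0.23, limma adjusted p 0.084). Without C14R replicate 1 of day 18 its C14R change was 0.38 and passed (limma adjusted p 0.0039). The dopamine transporter SLC6A3 had no group mean above 0.0255 FPKM. Of 14 adrenergic and dopamine receptors, 2 were tested. DRD2 rose by 1.09 in WT to 5 ± 0.595 FPKM (SD, n = 3), and ADRA2C, at 3.01 and 4.14 FPKM, did not pass in WT (0.35, limma adjusted p 0.068).

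Transcription factors of noradrenergic cells moved in both directions, and of 12 the 11 tested gave 2 higher, 6 lower and 3 not passing in WT, with a median of -0.43. GATA2, a zinc-finger factor of sympathetic neurons, fell by 1.88, from 98.8 ± 2.03 to 26.1 ± 0.963 FPKM (SD, n = 3), TBX2 fell by 2.00 and TLX2 by 1.22. PHOX2A rose by 0.68, from 92.8 ± 3.27 to 149 ± 10.4 FPKM. None of 7 dopaminergic midbrain factors reached the filter, and LMX1A and FOXA2 were listed at 0 in all libraries. Of 11 genes for other transmitters, 2 were tested: the choline transporter SLC5A7 fell by 2.48 in WT, from 19.5 to 2.66 FPKM, and the vesicular acetylcholine transporter SLC18A3 rose by 0.91, from 6.62 to 13.4. As with SLC6A2 and SLC18A2, the plasma membrane transporter of this pair was lower and the vesicular one higher at day 18. A fall was not shared by every gene of uptake, as the monoamine transporter SLC29A4 rose by 0.65 in WT.

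**Figure D5:**
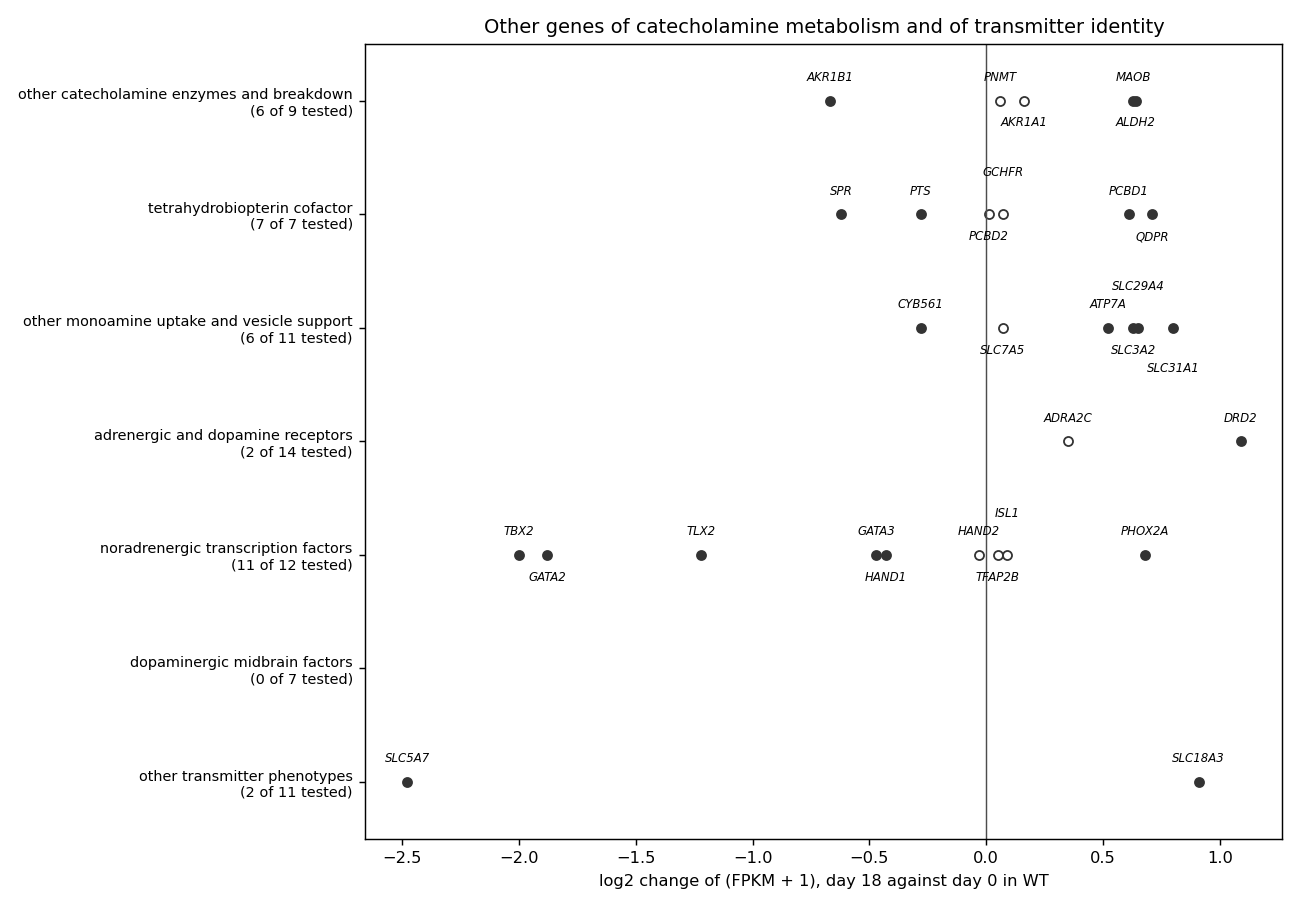
Log2 change of FPKM + 1 from day 0 to day 18 in WT (horizontal axis) of 30 of the 34 tested genes in 7 lists, filled where the limma adjusted p is under 0.05 and open otherwise. Of the genes shown, the choline transporter SLC5A7 lies furthest to the left, at -2.48, and 0 of 7 dopaminergic midbrain factors could be tested.

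Over the 18 libraries the 7 tested members followed one another closely, with Pearson's r between 0.952 and 0.993 among the 6 that rose and between -0.991 and -0.969 against SLC6A2, on log2(FPKM + 1). The libraries share the day contrast, which sets most of this, and 13.3% to 17.4% of all tested genes had r of at least 0.95 with a given member. The genes most alike to DBH were GRK5 (r 0.998), RET (0.997) and SYP (0.997), and those most alike to SLC18A2 were PITPNC1 (0.999), BACH2 and NCAM2. SORL1, RBFOX2 and AP2B1 were most alike to SLC18A1, IGF2, CARTPT and COL17A1 to DDC, PDGFRA, RYR2 and TSHZ2 to GCH1, and TPP1, RFTN1 and OXCT1 to MAOA. MCM7 (r 0.997), KIF26B and SNRNP200 were most alike to SLC6A2. In WT, RET had means of 83.1 and 332 FPKM at the 2 days and MCM7 81.7 and 29.6.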

How the data were processed

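The authors deposited 1 table of FPKM per gene symbol for 18 libraries. The submitters' processing notes name TopHat2, STAR, Cufflinks 2.2.1 and the build hg38, without their order. The annotation and the use of strand are not given in the sources used here. Libraries were grouped by construct and day from their titles, 0 value columns lacked a sample, and 0 pairs of libraries were identical. Of the genes, 13785 had a mean of at least 1 FPKM over all libraries. Their log2(FPKM + 1) entered a single limma 3.58.1 model (R 4.3.3) with a mean per group over all 18 libraries and a trend of variance with level. Benjamini-Hochberg adjustment was applied within a comparison, with a threshold of 0.05. The fit was tested on simulated data. On this scale the change of low genes is understated. Single genes were also compared by exact permutation tests. Positions are from GENCODE release 29 on GRCh38. The 8 genes and the lists were chosen with earlier results of these data known. Named were the 8 genes, up to 4 passing genes per list with the largest change between days in WT, list genes at 0 or passing between constructs, markers, overlapping genes, and the 3 genes most alike to each member. Of the genes this rule selects, 4 are not reported here, and counts and medians of lists include them. Values of other list genes are given where a count needed them. The following were varied in turn: the pseudocount (0.1), the filter (none, or a mean of at least 5 FPKM), the scaling (median of ratios, quantiles, or small RNA genes left out), the model (replicate block, compared groups only, no trend, limma library weights) and the libraries (each left out).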

Additional observations from a re-analysis of the deposited data

How the results depend on the processing

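The changes between days of the 7 tested members kept their direction and passed in all 588 combinations of member, construct and alternative. The number of members passing stayed at 7 in each construct, or 8 without a filter, where TH entered. The count of list genes passing, 25, 26 and 29 in WT, C14R and the deletion, ran from 24 to 36 over all alternatives, and without C14R replicate 1 of day 18 it was 26, 29 and 30. For C14R against WT at day 18 the members passing went from 0 to 2 with library weights and ran from 0 to 1 when each library was left out in turn. For the deletion against WT at day 18 they went from 0 to 1 with library weights and ran from 0 to 1 with each library left out. The cause was not tested. All other counts between constructs stayed at 0 in every alternative. Deviations of same-numbered libraries had r of -0.36 to 0.13 within a day, over 0.1 in 2 of 18 pairs. Across days r was -0.1 to 0.17, over 0.1 in 4 of 27 pairs. Libraries of different numbers were over 0.1 in 12 of 36 pairs within a day and in 7 of 54 across days. With 3 libraries a group, these values cannot decide whether the numbers pair them. With the replicate number as a block, 7 members passed between days in each construct and 0 between constructs, 26, 27 and 28 list genes passed, the DBH change in WT was 2.78, and no call of a member changed. Unknown depth limits TH, whose day 0 values rest on about 0 to 2 fragments if its smallest value above 0 stands for 1 fragment.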
